A study of Drosophila melanogaster with 2 samples.

Results

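In the adult hindgut of Drosophila melanogaster, 10 genes of S phase, the endocycle and nucleotide synthesis were examined: CycE, E2f2, Orc5, Mcm10, Psf1, RnrL, Ts, Gart, Pfas and Aprt. They were chosen by symbol, and genes were kept only on the stretches of chromosome arms 2L (up to position 22247875) and 3L (up to position 5149852) where gene names fit the counts. These 10 were drawn from 23932 features in all and 5237 on those stretches. The 21 ribosomal protein genes there had a median mean of 56220 normalized counts, against 1.17 for the 71 elsewhere, in the authors' deposited table; such genes were used to set the limits, so part of this contrast was built in. Of the 21 there, 19 were tested, and the other 2 were the paralogs RpS28-like and RpL7-like, the second of which is listed at 0 in the authors' deposited table. Mature guts were taken from adults kept for 4 days at 18 °C after emergence from the pupal case, and young guts as the adults emerged. All animals carried bynGal4, a driver of the hindgut gene brachyenteron, and had been raised at 25 °C. Age and the temperature of adult life changed together and cannot be told apart. Each age was sampled as 100 to 150 guts in 3 replicates, labelled as adult ileal cells. Nothing says whether the replicates were separate pools of animals, so p-values cover no more than the spread of these libraries, part of which could be technical.

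The measurements came from the authors' deposited table. For each gene it gives a mean of normalized counts over the libraries, a log2 fold change of young over mature guts, the standard error (SE) of that change and the adjusted p of the DESeq2 Wald test. A positive log2 value was therefore higher in young guts and a negative one higher in mature guts. A gene was called at an adjusted p under 0.05, and 95% intervals were computed from the change and its SE. Values per library were not analysed here, so neither group levels nor overlap between groups can be given. Whether the deposited fold changes had been shrunken toward 0 is not given in the sources used here, which bears on every fold, interval and 1.5-fold bound printed. The highest SE in the whole table was 0.53, and the gene sna, at a mean of only 1.04, had an SE of 0.27. Whether shrinkage set these values was not tested. All 10 genes had an adjusted p, which 10458 features of the whole table and 2604 of the stretches had. The means summed to 2.94e+07 normalized counts over all features in the authors' deposited table.

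Before S phase, the origin recognition complex marks sites on the DNA, the replicative helicase is loaded there, and cyclin E with its kinase lets the cell fire those origins. Cells that repeat S phase without dividing go through endocycles and become polyploid, and cells of the fly hindgut are known for this, in the adult pylorus after injury among other settings. DNA synthesis draws on deoxynucleotides, made from ribonucleotides by ribonucleotide reductase and, for thymidylate, by thymidylate synthase. Purines are built stepwise on a sugar phosphate or recovered from free bases.

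Of the 10 genes, 1 was higher in mature guts and 2 were higher in young guts, and 7 did not pass the test. Psf1, a subunit of the GINS complex of the replicative helicase, was the gene higher in mature. Ts, thymidylate synthase, and Aprt, the salvage enzyme for adenine, were higher in young. Of all features tested, 31.7% were called, with 15.4% higher in mature and 16.3% higher in young. In the name-checked stretches 40.3% were called, with 19.7% higher in mature and 20.7% higher in young. A share of 30.0% of the 10 genes is no larger than this background and is not a result about the set. Their median log2 change was 0.11, against -0.0070 over the tested features of the stretches, and their median absolute change was 0.33, against 0.38. At an adjusted p under 0.01, 2 of the 10 were called and 32.4% of the features of the stretches were, 15.2% higher in mature. Against a fold of 1.5, 0 of the 10 passed the Wald test, 1 of them (Ts) having an unadjusted p under 0.05, and 9.60% of the features passed. The count was 3 under each of the other rules, with 27.9% of the features called with no low-mean filter, 1093 of 2604 called with adjustment over the stretches alone, 43.8% over protein-coding features and 52.4% at a mean of at least 100. It was also 3 with all changes shifted by the median of the 19 tested ribosomal protein genes, a log2 change of 0.17, where 46.9% were called and 31.0% were higher in mature. In bulk guts, fewer cells of a type and less RNA per cell cannot be told apart.

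**Figure D1:**
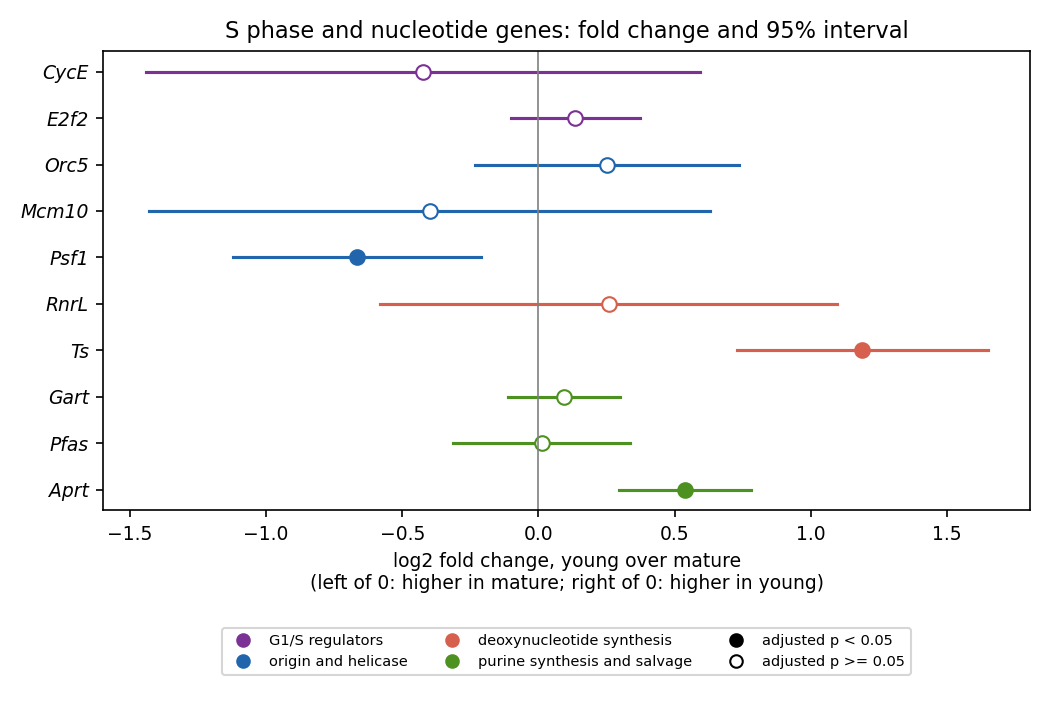
Each point is the log2 fold change of young over mature guts for 1 gene, the line is its 95% interval, colour gives the role, and filled points had an adjusted p under 0.05. Psf1 lay left of 0 at -0.67 (higher in mature), Ts and Aprt lay right of 0 at 1.19 and 0.54 (higher in young), and the intervals of CycE, Mcm10 and RnrL were the widest.

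The G1/S regulators CycE and E2f2 did not pass the test. CycE (2L, 15727581 to 15748150, minus strand) encodes cyclin E, whose activity starts S phase in mitotic and endocycling cells. It had a mean of 435.1 and a log2 change of -0.43 (SE 0.52, adjusted p = 0.607) in the authors' deposited table. Its 95% interval ran from -1.44 to 0.59, a ratio of young over mature from 0.368 to 1.51, and so covered a large difference toward mature guts as well as one toward young guts. E2f2 (2L, 21154293 to 21156749, minus strand) encodes the E2F factor that represses transcription together with the retinoblastoma proteins. Its mean was 1340 and its log2 change 0.14 (SE 0.12, adjusted p = 0.450) in the authors' deposited table. Here the interval was narrow, from -0.10 to 0.37, and ended below a 1.5-fold difference on either side. The sign of the E2f2 estimate was not fixed by the data: it was -0.04 after the shift by the ribosomal protein genes.

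Among the genes of origins and the helicase, Psf1 stood on one side and the others were undecided. Psf1 (3L, 1246986 to 1247677, minus strand) had a mean of 235.0 and a log2 change of -0.67 (SE 0.23, adjusted p = 0.0161) in the authors' deposited table. This is 1.59-fold higher in mature guts, with a 95% interval of the log2 change from -1.12 to -0.21. At an adjusted p under 0.01 the call was lost. Orc5 (2L, 13829837 to 13831576, plus strand), a subunit of the origin recognition complex, had a mean of 301.0 and a log2 change of 0.25 (SE 0.25, adjusted p = 0.502) in the authors' deposited table. Mcm10 (2L, 21179933 to 21182812, plus strand), a factor that helps to activate the helicase at a fired origin, had a mean of 225.3 and a log2 change of -0.40 (SE 0.53, adjusted p = 0.638) in the authors' deposited table. Its interval, from -1.43 to 0.63, was as wide as that of CycE, while Orc5 was bounded between -0.23 and 0.74. Psf2, another GINS subunit, had a log2 change of -0.14 (SE 0.20, adjusted p = 0.661) at a mean of 409.7 in the authors' deposited table. Both GINS subunits on these stretches thus had negative estimates, and Psf1 alone of them passed; the difference between them was not tested.

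The deoxynucleotide genes held the largest change. Ts (2L, 2968293 to 2969638, minus strand), which makes thymidylate for DNA, had a mean of 669.8 and a log2 change of 1.19 (SE 0.23, adjusted p = 3.34e-06) in the authors' deposited table. Young guts therefore had 2.28-fold the level of mature guts, with a 95% interval from 1.66-fold to 3.14-fold. Tested against a 1.5-fold change in place of no change, Ts did not pass (adjusted p = 0.131). Ts lies opposite Rbp9, an RNA-binding protein gene, and 142 bases or 10.5% of its exons overlap those of Rbp9. Rbp9 had a mean of 3390 and a log2 change of -0.36 (SE 0.09) in the authors' deposited table, so it moved the other way from Ts. RnrL (2L, 10325026 to 10327943, minus strand), the large subunit of ribonucleotide reductase, had a mean of 1574 and a log2 change of 0.26 (SE 0.43, adjusted p = 0.721) in the authors' deposited table. With an interval from -0.58 to 1.10, RnrL could not be placed on either side, although its mean was above that of Ts. The gene for dUTPase, which keeps uracil out of DNA, is listed at 0 in the authors' deposited table. All 824 of its exonic bases lie under the antisense feature asRNA:CR45778, which is also listed at 0, and the strand setting of the counting is not given in the sources used here.

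Of the 3 purine genes among the 10, Aprt passed and Gart and Pfas did not. Gart (2L, 7014623 to 7023898, minus strand), an enzyme of several steps of purine synthesis, had the highest mean of the set, 2966, with a log2 change of 0.09 (SE 0.11, adjusted p = 0.568) in the authors' deposited table. Pfas (2L, 6041181 to 6046050, minus strand), which makes formylglycinamidine ribotide in the same pathway, had a mean of 1403 and a log2 change of 0.01 (SE 0.17, adjusted p = 0.971) in the authors' deposited table. Intervals ran from -0.11 to 0.30 for Gart and from -0.31 to 0.34 for Pfas, so that a difference of 1.5-fold in either direction lay outside both. After the same shift, both estimates turned negative, to -0.08 for Gart and -0.16 for Pfas, and neither passed. Aprt (3L, 1883795 to 1885019, minus strand), which joins free adenine to a sugar phosphate, had a mean of 1424 and a log2 change of 0.54 (SE 0.12, adjusted p = 9.13e-05) in the authors' deposited table. It was 1.45-fold higher in young guts, with a 95% interval from 1.23-fold to 1.72-fold, and overlapped no other feature. The differences of Aprt from Gart and Pfas were not tested.

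**Figure D2:**
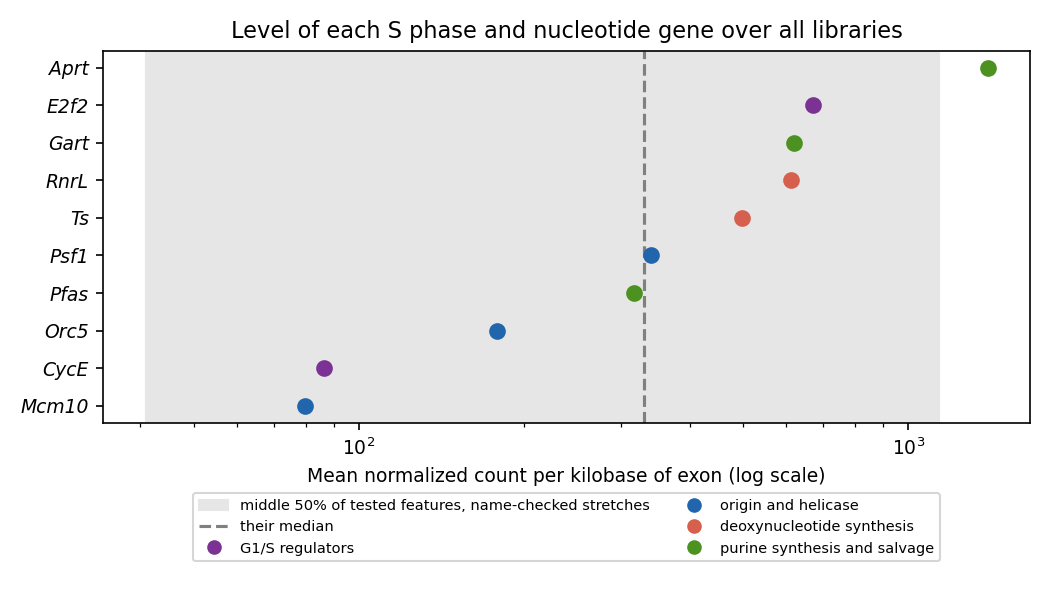
Each point is the mean normalized count over all libraries per kilobase of annotated exon, on a log axis, for 1 gene; the grey band spans the middle 50% of tested features of the stretches and the dashed line is their median, 329.7. Aprt was highest at 1395 per kilobase, above the band, and CycE and Mcm10 were lowest at 86.2 and 79.9.

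Levels of different genes were compared per kilobase of exon. Aprt led with a mean of 1395 normalized counts per kilobase, followed by E2f2 at 669.6, Gart at 620.5, RnrL at 610.8 and Ts at 497.6. Psf1 at 339.7 and Pfas at 316.3 lay next to the median of the tested features of the stretches, 329.7. Orc5 at 178.4, CycE at 86.2 and Mcm10 at 79.9 were the lowest, so the set spanned 17.5-fold. Of the 2604 tested features, 78.2% had a lower level per kilobase than Aprt and 31.2% a lower one than Mcm10. Apart from Pfas, the enzymes of nucleotide supply and the repressor E2f2 thus stood above the origin genes and cyclin E. No error over libraries can be given for these levels, so the order of close neighbours such as Gart and RnrL, or CycE and Mcm10, is not established.

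Of the 10 genes, 3 had unusually large standard errors for their abundance. Each was set beside the 200 tested features of the whole table closest to it in mean. RnrL, at 0.43, exceeded 197 of its 200 neighbours, whose median SE was 0.12. CycE, at 0.52, exceeded 196 of 200 with a median of 0.19, and Mcm10, at 0.53, exceeded 195 of 200 with a median of 0.24. These are 3.47, 2.78 and 2.16 times the neighbours' medians. The SEs of E2f2, Psf1 and Aprt were ordinary, above 70, 72 and 87 of 200, and that of Gart was above 129. Orc5 was above 158, Pfas above 185 and Ts above 191 of 200, and Ts passed the test all the same.

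SEs above a fixed limit were rare at such means in the stretches. Of 1714 tested features there with a mean of at least 200, 33 or 1.93% had an SE over 0.4, limits chosen after the values were seen. RnrL had the highest mean of those 33, and CycE and Mcm10 were among them. A fixed limit leaves out abundant features whose SE is lower but still wide for their mean. The gene tim, from the lists below, had an SE of 0.36 at a mean of 21293, which is 4.46 times the median of features of like mean. Estimates of 16 lay toward mature and of 17 toward young, and 10 of the 33 were called, 1 of them higher in mature and 9 higher in young. Of all tested features of the stretches, 40.3% were called, 19.7% higher in mature and 20.7% higher in young. Because the limits were set after the values were seen, these counts are not a result about the 33. The one higher in mature was CG11911 (log2 -1.56), and the largest change higher in young was that of CG13082 (3.20), followed by CG7203 (2.54) and Acp1 (2.04), in the authors' deposited table. The 23 not called had estimates of either sign. Besides the members, those named here were chosen after their values were seen. Negative ones include the checkpoint kinase gene lok (SE 0.48), the condensin gene glu (0.45), the microtubule nucleation gene Grip71 (0.51) and the vitelline membrane gene Vm26Aa (0.42) in the authors' deposited table. Positive ones include nrv3 (SE 0.52), LManVI (0.52) and CG3285 (0.53) in the authors' deposited table. The urate oxidase gene Uro (SE 0.52) and the potassium channel gene Irk3 (0.50), both expressed in Malpighian tubules, were among the 23 too. Their log2 changes were -1.16 and -0.02 in the authors' deposited table, so Irk3 had no direction. The other tested tubule markers, tup and tsh, had SEs of 0.21 and 0.45, or 1.16 and 1.04 times the median of features of like mean. The part of tubule cells in the wide errors was not tested. No SE in the whole table exceeded 0.53, so CycE and Mcm10 lay close to its ceiling.

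**Figure D3:**
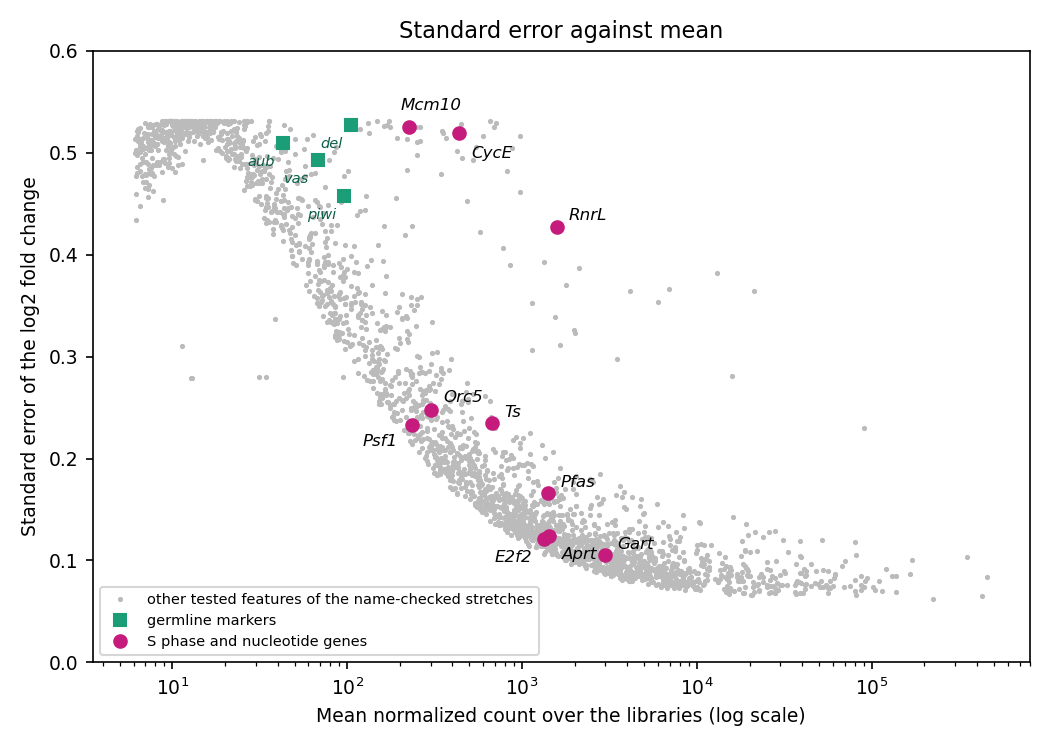
The SE of the log2 fold change is plotted against the mean normalized count (log axis) for the tested features of the name-checked stretches, in grey, with the S phase and nucleotide genes as circles and germline markers as squares. RnrL, CycE and Mcm10 stand far above the band of features of like mean, at SEs of 0.43, 0.52 and 0.53, whereas E2f2, Psf1, Aprt and Gart lie within it.

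Markers of other tissues that contain cycling cells were listed beside these genes. Of 5 germline markers on the stretches, del, aub, vas and piwi had means from 43.1 to 105.0, adding up to 312.1, and cup is listed at 0 in the authors' deposited table. All exonic bases of cup are shared with CG34310 on the same strand. None of the 4 tested germline markers was called by the DESeq2 Wald test, while 3 had an unadjusted p under 0.05. The share of all tested features with such a p was not computed, so the count of 3 is not a result about these markers. Their log2 changes were -1.24 for del, -1.01 for aub, -0.99 for vas and -0.47 for piwi in the authors' deposited table, all toward mature guts. Their SEs, from 0.46 to 0.53, exceeded those of at least 190 of 200 features of like mean. As ratios to the median of those features they were 1.61 for del, 1.15 for aub, 1.29 for vas and 1.33 for piwi. High ranks were not particular to germline markers, and other markers varied. The fat body marker Fbp2 stood above 197 of 200, the hindgut regulator cad above 196 and the muscle marker Mhc above 9. The part of such cells in the wide errors of RnrL, CycE and Mcm10, or in the change of Psf1, was not tested.

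The remaining marker lists were short, and the composition of the tissue was not estimated from them. Over the tested features of the stretches, 19.7% were higher in mature and 20.7% higher in young. The hindgut regulators drm, bowl, odd, sob, cad and wg had means from 504.6 to 13433 in the authors' deposited table, with 1 higher in mature and 5 higher in young. Visceral muscle markers, with means from 55993 to 428275, had 1 higher in mature and 2 higher in young. Hemocyte markers had 1 higher in mature and 3 higher in young of 4 tested, and fat body markers 2 of 2 higher in young. The tracheal marker trh was higher in young, the neuronal list had 1 of 2 tested genes higher in mature, and the Malpighian tubule list had 1 of 4 higher in mature. The 2 neuronal genes had opposite signs, with log2 changes of -1.91 for nSyb, which passed, and 0.98 (SE 0.44) for Syt1, which did not. Of the stem cell and enteroendocrine list, sna had a mean of 1.04 and wor is listed at 0 in the authors' deposited table, and neither was tested.

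Other genes from lists of DNA replication, the cell cycle and purine synthesis and salvage had estimates on the side of mature guts, most of them not past the test. In the 5 lists with tested genes on the stretches, 20 genes besides the 10 were tested, 0 of them from the deoxynucleotide list. All 20 had a negative log2 change, with a median of -0.30, whereas 1315 of the 2604 tested features did, with a median of -0.0070. By the test, 5 of the 20 were higher in mature and 0 were higher in young, so that 25.0% were called. Of the tested features of the stretches, 40.3% were called, with 19.7% higher in mature and 20.7% higher in young. The share of the 20 that was called is no larger than this background and is not a result about them. An unadjusted p under 0.05 (DESeq2 Wald test) with a negative change was found for 8 of the 20. The share of all tested features that met this looser rule was not computed, so the count of 8 is not a result about the 20. The lists include tim, Uro and twe, which are not genes of S phase or nucleotide synthesis in this fly. Without them, a choice made after the values were seen, 17 of 17 estimates were negative, with a median of -0.28, and 4 were called, all higher in mature. The 2 lists of histone supply, tandem histone copies aside, and of pyrimidine synthesis had no tested gene on the stretches. Of the 10 genes themselves, 3 were negative and 7 positive, or 6 and 4 after the shift by the ribosomal protein genes. Over all 30 tested genes of the lists, the 10 included, 23 were negative and 7 positive, with a median of -0.25. The 10 and the lists were chosen with earlier results of these data known, so the contrast in sign between the 10 and the 20 is not a result about either.

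The 5 genes that passed had different roles. Top3alpha, a topoisomerase that resolves joined DNA strands, was 2.80-fold higher in mature guts (log2 -1.49, SE 0.16, adjusted p = 6.21e-19) at a mean of 570.4 in the authors' deposited table. The chif gene encodes the partner of the Cdc7 kinase that fires origins, and had a log2 change of -0.41 (SE 0.12, adjusted p = 0.00437) at a mean of 3367 in the authors' deposited table. Chrac-14, a histone-fold protein of DNA polymerase epsilon and of a chromatin remodeller, had one of -0.43 (SE 0.16, adjusted p = 0.0289) in the authors' deposited table. For bur, the GMP synthetase gene of a further purine step, the change was -0.31 (SE 0.10, adjusted p = 0.0107) at a mean of 4230 in the authors' deposited table, so it moved opposite to Aprt. The germline phosphatase gene twe had one of -1.48 (SE 0.53, adjusted p = 0.0185) in the authors' deposited table, with an SE above 195 of 200 features of like mean, as in the germline markers. Of its exonic bases, 98 or 4.12% are shared with EndoGI on the opposite strand, which had a mean of 7011 and a log2 change of -0.68 (SE 0.09, adjusted p = 1.41e-13) in the authors' deposited table. EndoGI thus moved the same way as twe, and its part in the change of twe was not tested. The exons of chif share 19.5% of their bases with Hyls1 on the same strand, listed at 0, and those of bur 11.4% with asRNA:CR44911 on the opposite strand, at a mean of 2.16, in the authors' deposited table.

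The remaining 15 did not pass. The replication factor C genes RfC3, RfC38 and RfC4 had log2 changes of -0.51, -0.26 and -0.08, and the polymerase delta subunits PolD2 and PolD3 had -0.28 and -0.24, in the authors' deposited table. The checkpoint adaptor Claspin had a log2 change of -0.04 and the sliding clamp paralog PCNA2 one of -0.24 in the authors' deposited table. Among regulators, the inhibitory kinase gene Wee1 had -0.39 (adjusted p = 0.0586), the cyclin E ubiquitin ligase gene ago -0.22 (adjusted p = 0.113), the checkpoint kinase gene grp -0.25, lok -0.75 and Rca1 -0.68 in the authors' deposited table. Uro, at -1.16 (SE 0.52, adjusted p = 0.0732), breaks purines down and does not make them. The gene tim, a circadian clock gene of the fly, entered the list by its name and had -0.15 (SE 0.36, adjusted p = 0.819) in the authors' deposited table.

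**Figure D4:**
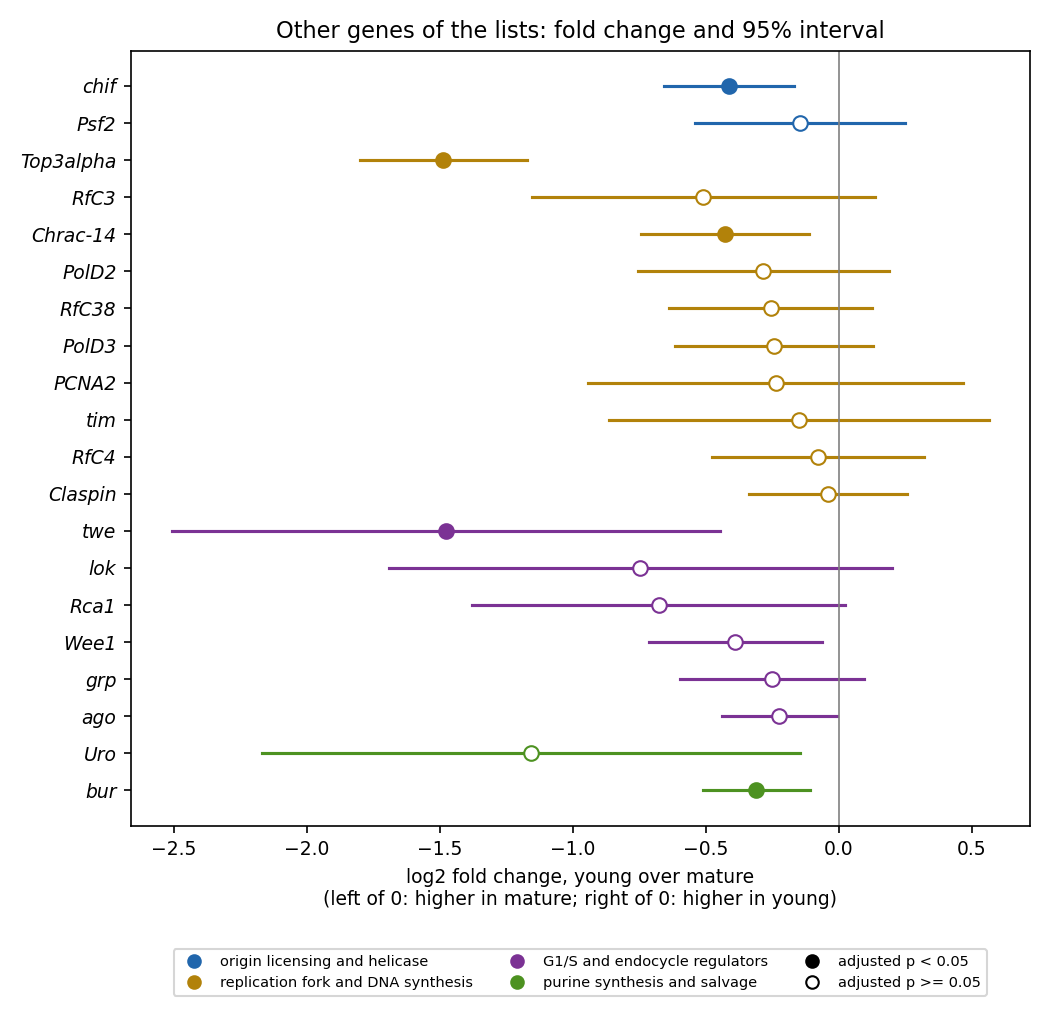
Log2 fold changes of young over mature guts with 95% intervals are shown for the 20 other tested genes of the replication, G1/S and purine lists, filled where the adjusted p was under 0.05. All 20 points, tim, Uro and twe among them, lie left of 0, from -1.49 for Top3alpha to -0.04 for Claspin, and 5 are filled.

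The nearest genes of the ribosome, translation factors or respiratory chain around the 10 genes, 15 in all, had means from 6912 to 225211 in the authors' deposited table. Genes of these kinds were used to set the limits of the stretches, so their high means were fixed by that choice and are no check of the names. The distances ran from 1169 bases, between CycE and ND-B17, to 2332450 bases, between CycE and RpL24 on its other side. Psf1 had such a neighbour, ND-ACP, on its right side and none on its left. Mcm10 was closest to the end of its stretch, 1065063 bases away, with eEF2 between them. Some exons were shared with features on the opposite strand: 19.9% of the exonic bases of E2f2 with Mpp6 (mean 157.2), 13.0% of those of Mcm10 with Ret (37.8) and 5.63% of those of Orc5 with PolG2 and GatC, both listed at 0 in the authors' deposited table. Smaller shares were 2.97% and 1.94% of the exonic bases of CycE with asRNA:CR44866 (listed at 0) and lncRNA:CR44974 (1.46), 2.41% of those of Gart with CG43322 (150.1) and 2.32% of those of Pfas with CG31643 (820.5), in the authors' deposited table. Pcp, opposite Gart, and mir-966, on the strand of Pfas, overlap these genes without sharing exonic bases. None of the 10 was among the 91 features that the authors also deposited as a mature list, or the 132 of their young list, out of 23932 features. The smallest absolute log2 changes of these lists were 1.97 (mature) and 1.96 (young). The largest of the 10 was 1.19, for Ts, so their absence follows from the size of their changes and adds no result.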

How the data were processed

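Total RNA was extracted with Trizol and sequenced as NovaSeq read pairs, per the labels' protocols. The submitters' processing notes name Trim Galore, HISAT2 and DESeq2, with no versions, and BDGP6 as the build. For the counting program, its strand setting and the annotation, the choice is not given in the sources used here. The mean is a signal, the DESeq2 average of normalized counts, per the file headers. The fold change and its SE are log2 values deposited by the authors, taken as log2 since DESeq2 works in that base. In all 15003 features that have one, the Wald score deposited by the authors is the change over its SE, within 1e-06 relative. Each p-value in the authors' deposited table is from the two-sided Wald test of DESeq2, and all 10458 adjusted p-values could be recomputed from them by the Benjamini-Hochberg method within 1e-06 relative.

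The members and lists were chosen with earlier results of these data known. Identifiers were matched to Ensembl release 115 (BDGP6, 1-based positions), where 23851 of 23932 were found. List symbols were also matched through unique older symbols, and one that led to a ribosomal protein gene was dropped. By rule the text names the members, the passing genes of each S phase or nucleotide list, named genes that overlap a member and ubiquitous neighbours; paralogs named as -like were left out of these neighbours after their values were seen. Naming list genes that did not pass, marker genes, overlaps of list genes and genes with wide SEs was decided after seeing values. The planned count test needs counts per library, so the authors' test stands. The code of the recomputed Wald tests and their adjustment was run on changes simulated from the deposited SEs with known shifts. Computation used Python 3.11.15 (scipy 1.17.1, numpy 2.4.6, pandas 2.3.3), and figures matplotlib 3.10.9.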

Additional observations from a re-analysis of the deposited data

How the results depend on the processing

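Of the 10 genes, the same count of 3 (1 higher in mature, 2 higher in young) was obtained with no low-mean filter, over protein-coding features, over the stretches alone, at a mean of at least 100 and after recentring on the 19 ribosomal protein genes. At an adjusted p under 0.01 it was 2, with 0 higher in mature (DESeq2 Wald test; Psf1 had an unadjusted p of 0.00422). Against a fold of 1.5 the Wald test called 0, with 0 higher in mature and 0 higher in young; Ts had an unadjusted p of 0.00993 there. Recentring reversed E2f2 (-0.037), Gart (-0.078) and Pfas (-0.161), none of them called. Over all 30 tested genes of the lists, 8 were called (6 higher in mature, 2 in young), or 26.7% against 40.3% of the tested features of the stretches. At an adjusted p under 0.01 there were 4, with 2 higher in mature, where 32.4% of those features were called. After recentring there were 13, with 11 higher in mature, where 46.9% of those features were called and 31.0% were higher in mature. The cause was not tested beyond the shift of 0.17 itself. Wee1 was also called over the stretches alone (adjusted p = 0.0464) and at a mean of at least 100 (0.0433). No paired analysis was possible because the table has no value per library; for the same reason the edgeR test, its normalization and filter, and leaving out each replicate were not run. Depth per library and the spread behind each mean are unknown, which limits CycE, Mcm10 and RnrL most.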

Other observations

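Replication-dependent histone genes, which are transcribed in S phase, lie in a tandem array on 2L. The 111 annotated copies of His1, His2A, His2B, His3 and His4 had means from 0 to 14.8 in the authors' deposited table, adding up to 696.8. Of 51 copies with an adjusted p, 7 were called, all of them His3 copies higher in young, with log2 changes from 1.24 to 1.65. Only 9 of the 23 His3 copies were tested. Over the tested features of the stretches, 40.3% were called, 20.7% higher in young. His3 copies had means of at most 8.51, near the lowest mean with an adjusted p in the whole table, 6.11. The copies are nearly identical and the treatment of reads that match several copies is not stated, which leaves their values uncertain and means that the 7 calls cannot be taken as separate results. His1 and His2A, with 21 and 18 tested copies, had no call.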
